A study of Mus musculus with 24 samples.

Results

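Whole ovaries of 3-month-old and 6-month-old mice of a natural aging series were compared here, 3 mice at each age, which are 6 of the 24 libraries of the study. The libraries were taken by the ages in the sample labels, and all 17313 genes with enough reads were compared. The study's methods give the mice as female C57BL/6J, and the labels give the tissue as ovary, the molecule as total RNA and the condition of both groups as natural aging, with no treatment and no genotype other than the strain. The study asked how cellular senescence, a lasting arrest of the cell cycle with secretion of inflammatory factors, accompanies the aging of the ovary. The methods also describe mice that were given a vehicle from 3 months on as controls of ABT263, a drug that kills senescent cells, and whether the 6-month-old mice are those mice was not settled from the labels. The libraries held 20029940, 18371745 and 19697122 counts at 3 months and 20231834, 19991606 and 19254606 counts at 6 months, so that 3 counts, the smallest number read here as expression, correspond to between 0.148 and 0.163 CPM, which are counts scaled to a common library size.

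The ovary is built around follicles, each an oocyte enclosed by granulosa cells, with theca cells outside the larger ones. Mice are born with a fixed store of primordial follicles, which is used up through life as follicles are recruited to grow, and nearly all growing follicles die and are cleared. Oocytes of growing follicles store large amounts of maternal mRNA for the egg coat, for signals to the granulosa cells and for the first days of the embryo. Granulosa cells divide quickly while the follicle grows, ovulated follicles turn into corpora lutea that make progesterone, and macrophages, the main leukocytes of the ovary, take up the remains of dead follicles and old corpora lutea.

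The tissue label was borne out by the markers of ovarian cells, which were present in all 6 libraries. *Amh*, the hormone of granulosa cells of small growing follicles, was at 379, 276 and 228 CPM at 3 months and 166, 200.4 and 249 CPM at 6 months. *Cyp17a1*, the androgen-making enzyme of theca cells, was at 230.1, 79.4 and 27.4 CPM at 3 months and 386, 502 and 243 CPM at 6 months. Other tissues left a trace in some libraries. *Adipoq*, the fat cell hormone adiponectin, had 188 counts in 3-month mouse 1 and between 0 and 29 counts in the other 5. The adipocyte list, with 6 of 10 members tested, *Ucp1* at 0 throughout and *Pparg* as its most abundant gene by CPM, summed to 143, 70.3 and 61.9 CPM at 3 months and 89.5, 96.6 and 107 CPM at 6 months. *Ovgp1*, the secreted glycoprotein of the oviduct, had 80, 73 and 691 counts at 3 months and 61, 77 and 3248 counts at 6 months. The oviduct list, with 7 of 9 members tested and *Ovgp1* as its most abundant gene over all 6 libraries, summed to 54.3, 50.1 and 87.3 CPM and to 40.3, 47.6 and 232 CPM, so mouse 3 was the highest of each age, and at 6 months it carried most of the sum. In the other 4 libraries the list member *Sox17*, a transcription factor, had more counts than *Ovgp1*, between 348 and 480. *Gbp2b*, a gene that differs between mouse strains, had 340 counts in 3-month mouse 1 and at most 8 in the other 5. *Nnt*, which the C57BL/6J strain carries in a deleted form, had 7, 2 and 12 counts at 3 months and 29, 20 and 14 counts at 6 months, all under 1.5 CPM. *Hbb-bs*, a globin of red blood cells, was at 113 CPM in 3-month mouse 1 and between 28.2 and 53.3 CPM in the others. The part of these differences in the results was not tested.

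The 3-month-old mice differed from each other as much as from the 6-month-old mice. Over all genes the root mean square difference in log2 CPM was between 0.567 and 0.619 for pairs of 3-month-old mice, between 0.490 and 0.509 for pairs of 6-month-old mice and between 0.516 and 0.629 for pairs of different age. With this spread, no gene passed an adjusted p of 0.05 in the main test, edgeR's quasi-likelihood test with Benjamini-Hochberg adjustment, in either direction (0.00% of genes). The smallest adjusted p was 0.240, which 22 genes shared. Without adjustment, 711 genes (4.11%) were higher and 865 genes (5.0%) lower at 6 months with a p under 0.05, together 9.10%. The 3 values at one age lay wholly above the 3 values at the other for 1158 genes (6.69%) higher and 1376 genes (7.95%) lower at 6 months. DESeq2, run as an alternative on the same counts, called 75 genes (0.479%) higher and 51 (0.326%) lower of 15644 to which it gave an adjusted p. The edgeR test without a filter on low counts called 248 and 208, and without 3-month mouse 2 it called 33 and 43. The genes that follow are therefore described by their values, and no gene is said to have risen or fallen.

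Most genes differed little. The median log2 fold change was 0.004, 95% of genes lay between -0.85 and 0.82, and 504 genes (2.91%) differed by more than 2-fold, 256 higher and 248 lower at 6 months. Of those 504 genes, 269 showed no overlap between the ages. In the plot of change against level, the genes of oocytes and of mitosis lay below 0, those of macrophages above it, and the genes of the cytoplasmic ribosome formed a narrow band below 0 at high levels.

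**Figure D1:**
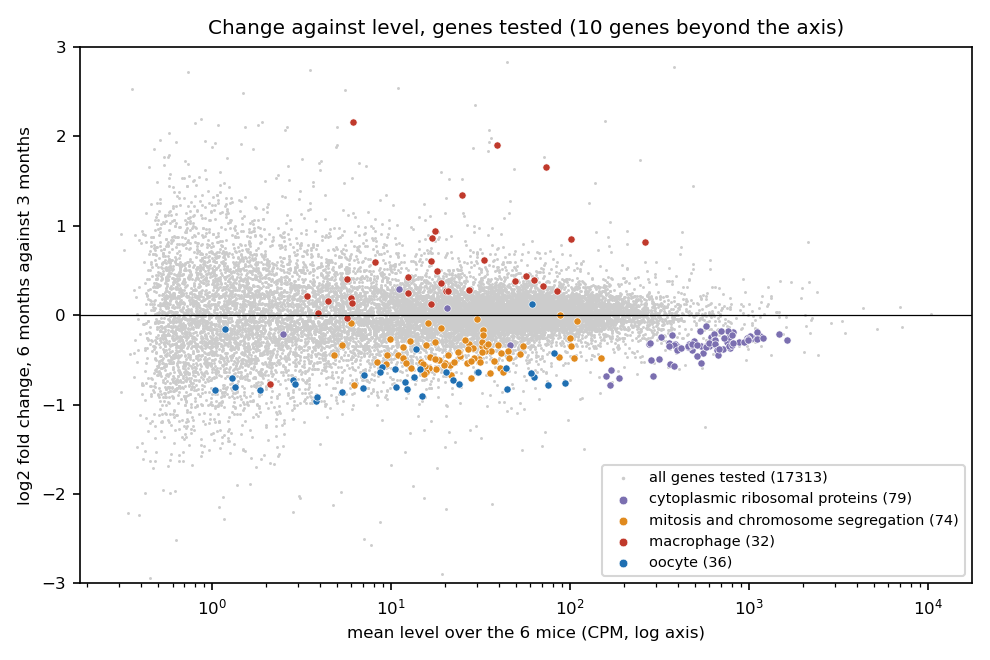
Each point is a gene, with its mean level over the 6 mice in CPM on a log axis and its log2 fold change at 6 months against 3 months. All 17313 genes tested are in grey, and 36 oocyte genes, 74 genes of mitosis, 32 macrophage genes and 79 ribosomal protein genes are colored; the oocyte genes have a median of -0.73 and the macrophage genes a median of 0.39.

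Genes of the oocyte were lower at 6 months as a group. All 36 genes listed passed the filter on low counts and 35 had a lower fitted level at 6 months, with a median log2 fold change of -0.73 and quartiles of -0.80 and -0.63, beside a median of 0.004 and 50.8% higher over all genes. The unadjusted p was under 0.05 for 30, all lower, where 5.0% of all genes were lower by that measure, 26 of 36 were lower without overlap between the ages, beside 7.95% of all genes, and DESeq2 called 12 lower, beside 0.326%. The summed level of the 36 genes was 1073, 1086 and 859 CPM at 3 months and 690, 637 and 641 CPM at 6 months. The member not lower was *Kit*, a receptor that other ovarian cells also express, at 91.8, 45.6 and 38.4 CPM at 3 months and 58.9, 76.2 and 56.6 CPM at 6 months. Its log2 fold change was 0.12, and -0.04, -0.10 and -0.03 without 3-month mouse 2, 3-month mouse 3 and 6-month mouse 2. In RNA of whole ovaries, fewer oocytes and less of these mRNAs per oocyte cannot be told apart.

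The upstream sequences of 3 of these genes are shown because E-boxes, the 6-base motif CANNTG bound by FIGLA and other helix-loop-helix proteins, are known control elements of egg coat genes. They are the 250 bases before the RefSeq start on GRCm38.p6, 5′ to 3′ on the strand of the gene, with each CANNTG in capitals.
Zp3 (chr5:135979855-135980104, plus strand): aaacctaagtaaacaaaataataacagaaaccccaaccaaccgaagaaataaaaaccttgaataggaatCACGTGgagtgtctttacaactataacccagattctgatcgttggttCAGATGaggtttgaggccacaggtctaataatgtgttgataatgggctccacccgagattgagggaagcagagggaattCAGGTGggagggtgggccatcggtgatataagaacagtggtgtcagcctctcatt
Zar1 (chr5:72581085-72581334, minus strand): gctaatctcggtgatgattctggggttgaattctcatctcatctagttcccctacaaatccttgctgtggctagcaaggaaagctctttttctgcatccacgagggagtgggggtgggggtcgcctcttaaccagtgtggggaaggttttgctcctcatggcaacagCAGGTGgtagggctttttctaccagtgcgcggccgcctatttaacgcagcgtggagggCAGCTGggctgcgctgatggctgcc
Padi6 (chr4:140742644-140742893, minus strand): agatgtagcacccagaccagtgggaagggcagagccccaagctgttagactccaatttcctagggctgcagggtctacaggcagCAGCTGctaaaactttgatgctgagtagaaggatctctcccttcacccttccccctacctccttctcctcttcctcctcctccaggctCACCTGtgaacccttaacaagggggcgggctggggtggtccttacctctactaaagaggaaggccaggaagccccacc
The motif reads the same on both strands and holds 2 free bases, so it is common. It was found in 27 of 34 promoters (79.4%) of the 27 oocyte genes with an entry in the promoter table and in 66.2% of all 32851 promoters. The share was 81.2% in macrophage genes and 54.4% in genes of mitosis. Counted from the start, it lies at -181, -134 and -55 in *Zp3*, at -83 and -25 in *Zar1*, and at -166 and -78 in *Padi6*. A match of these letters is not evidence of a bound site.

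The egg coat, or zona pellucida, is made of glycoproteins secreted by the growing oocyte. *Zp3*, a structural protein of the coat, was at 52.2, 66.1 and 52.2 CPM at 3 months and 31.0, 29.9 and 35.2 CPM at 6 months. The ages did not overlap, and the log2 fold change was -0.83 ± 0.13, with an adjusted p of 0.240 by edgeR. *Astl*, the protease ovastacin that remodels the coat after fertilization, was at 18.8, 22.1 and 16.7 CPM at 3 months and 9.65, 9.22 and 12.2 CPM at 6 months. All 4 genes of this role, with *Zp1* and *Zp2*, were lower without overlap (7.95% of all genes), with log2 fold changes between -0.90 and -0.65.

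Oocytes signal to the granulosa cells around them through the growth factors GDF9 and BMP15. *Gdf9* (chr11:53431023-53437904) was at 100.03, 104 and 79.3 CPM at 3 months and 55.0, 56.9 and 53.8 CPM at 6 months. Its 3 values at 6 months lay close together and below all values at 3 months, and the log2 fold change was -0.78 ± 0.12. *Bmp15* was at 44.5, 39.7 and 25.1 CPM at 3 months and 26.2, 21.6 and 22.9 CPM at 6 months. Here 1 mouse at 3 months lay within the range of the 6-month-old mice, and the log2 fold change was -0.63 ± 0.20.

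Maternal-effect genes make products that the egg stores for the embryo. *Padi6*, a member of the subcortical maternal complex and the most abundant gene of the oocyte list by CPM, was at 113, 138 and 101 CPM at 3 months and 72.6, 65.9 and 69.6 CPM at 6 months. All 5 genes of this complex, *Nlrp5*, *Padi6*, *Tle6*, *Khdc3* and *Ooep*, were lower without overlap (7.95% of all genes), with a median log2 fold change of -0.64. *Zar1*, which binds and stores maternal mRNA, was at 32.6, 31.9 and 26.0 CPM at 3 months and 18.6, 18.1 and 16.4 CPM at 6 months. *Npm2*, a histone chaperone of the egg that is not in the list, was at 20.3, 23.8 and 18.1 CPM at 3 months and 12.7, 11.5 and 12.4 CPM at 6 months. Neither of them overlapped between the ages, and their log2 fold changes were both -0.77.

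The 5 transcription factor genes of the oocyte, *Figla*, *Nobox*, *Sohlh1*, *Lhx8* and *Obox5*, were lower by log2 fold changes between -0.91 and -0.60, and 3 of them had no overlap (7.95% of all genes). *Sohlh1* lay between -1.32 and -0.40 when each mouse was left out in turn. *Figla*, the regulator of the zona genes, was low throughout, at 1.64, 1.55 and 0.820 CPM at 3 months and 0.780, 0.694 and 0.764 CPM at 6 months. *Ddx4*, an RNA helicase of germ cells that is also made by oocytes of primordial follicles, was at 4.10, 5.57 and 5.43 CPM at 3 months and 2.97, 2.23 and 2.55 CPM at 6 months. The 7 genes of germ cell RNA and transposon control around it were lower by log2 fold changes between -0.96 and -0.63. The roles of the oocyte thus differed little from each other, with medians between -0.81 and -0.64 outside the pair of *Kit* and *Sycp3*.

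Of the 12 protein-coding genes with the smallest p among those lower at 6 months without overlap and with at least 2 CPM at the higher age, 5 belong to the oocyte list. The other 7 include *Ccno*, a cyclin-like protein, which was at 22.98, 25.8 and 22.6 CPM at 3 months and 13.8, 11.8 and 12.5 CPM at 6 months, and *AU022751*, which was at 23.7, 22.96 and 21.5 CPM at 3 months and 14.3, 14.6 and 12.2 CPM at 6 months. *Fndc5*, the precursor of the secreted peptide irisin, had the smallest p of all genes. It was at 29.0, 27.5 and 25.6 CPM at 3 months and 14.9, 11.5 and 14.1 CPM at 6 months, with a log2 fold change of -1.02 ± 0.15. *Kazald1*, a secreted protein with an insulin-like growth factor binding domain, was at 38.6, 31.2 and 27.3 CPM at 3 months and 18.4, 15.1 and 15.8 CPM at 6 months. *Derl3*, which removes misfolded proteins from the endoplasmic reticulum and is also a member of the B and plasma cell list, was at 73.5, 69.6 and 61.7 CPM at 3 months and 44.5, 40.2 and 43.6 CPM at 6 months. *Hspb1*, a small heat shock protein, was at 57.1, 82.9 and 68.0 CPM at 3 months and 37.1, 35.5 and 33.4 CPM at 6 months. The 3 mice at 6 months lay close together for *Hspb1* and far below those at 3 months, with a log2 fold change of -0.98 ± 0.15.

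Genes of dividing cells were lower at 6 months. Of 74 genes of mitosis and chromosome segregation, 73 had a lower fitted level, with a median log2 fold change of -0.45. The unadjusted p was under 0.05 for 46, beside 5.0% of all genes in that direction, and 32 were lower without overlap, beside 7.95%. Their summed level was 3019, 2342 and 2616 CPM at 3 months and 1806, 1947 and 2335 CPM at 6 months. The ages come close here, since 3-month mouse 2 exceeded 6-month mouse 3 by little. The median lay between -0.58 and -0.34 when each mouse was left out in turn, and DESeq2 called 1 member lower, beside 0.326% of all genes.

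Promoters of 2 genes of this list are shown because genes of the late cell cycle are known to be held down in resting cells through the element TTTGAA near the start. The windows are as above, with TTTGAA, or TTCAAA where the match is on the other strand, in capitals.
Cdk1 (chr10:69352913-69353162, minus strand): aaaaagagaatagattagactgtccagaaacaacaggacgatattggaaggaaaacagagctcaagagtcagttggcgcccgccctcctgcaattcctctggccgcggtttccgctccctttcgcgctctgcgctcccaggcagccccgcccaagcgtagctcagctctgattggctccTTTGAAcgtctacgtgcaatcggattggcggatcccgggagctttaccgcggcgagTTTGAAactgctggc
Cenpn (chr8:116921490-116921739, plus strand): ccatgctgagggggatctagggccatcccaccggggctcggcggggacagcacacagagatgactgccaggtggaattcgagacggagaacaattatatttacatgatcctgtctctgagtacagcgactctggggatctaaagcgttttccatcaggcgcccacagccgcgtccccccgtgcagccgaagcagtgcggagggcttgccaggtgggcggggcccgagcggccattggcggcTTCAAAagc
In *Cdk1* the 2 matches lie at -71 and -15 and in *Cenpn* the match lies at -9. Either orientation of TTTGAA was found in 33.8% of 68 promoters of 61 genes of mitosis and in 16% of all 32851 promoters. In promoters of DNA replication genes the share was 14%. The element CCAAT, which NF-Y binds and which was searched on both strands, was found in 66.2% and in 33.8%, and in 56% of promoters of DNA replication genes.

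*Mybl2*, a transcription factor of the cell cycle, had the smallest p of the list and was at 24.2, 26.8 and 28.3 CPM at 3 months and 14.3, 17.2 and 18.5 CPM at 6 months. *Cdk1*, the kinase that drives entry into mitosis, was at 56.1, 42.0 and 47.7 CPM at 3 months and 28.6, 34.0 and 34.8 CPM at 6 months. *Cenpn*, a protein of the centromere, was at 21.8, 19.4 and 17.5 CPM at 3 months and 11.8, 14.3 and 13.1 CPM at 6 months. None of the 3 genes overlapped between the ages, with log2 fold changes of -0.67 ± 0.14, -0.59 ± 0.14 and -0.59 ± 0.15. *Stmn1*, a regulator of microtubules and the most abundant gene of the list by CPM, was at 199.9, 149 and 174 CPM at 3 months and 101, 135 and 139.8 CPM at 6 months.

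Genes of DNA replication went the same way, with 53 of 54 lower, a median log2 fold change of -0.33, an unadjusted p under 0.05 for 21 (5.0% of all genes were lower by that measure) and no overlap for 23 (7.95% of all genes). *Mcm6*, a subunit of the replicative helicase, was at 136, 106 and 104 CPM at 3 months and 77.4, 84.4 and 76.0 CPM at 6 months. *Mcm5*, another subunit, was at 64.7, 50.9 and 62.9 CPM at 3 months and 34.6, 34.6 and 45.9 CPM at 6 months. *Uhrf1*, which guides DNA methylation to newly copied DNA, was at 76.3, 72.9 and 81.6 CPM at 3 months and 39.0, 51.8 and 60.5 CPM at 6 months. The log2 fold changes were -0.54 ± 0.13, -0.64 ± 0.15 and -0.61 ± 0.15. *Dnmt1*, the methyltransferase that UHRF1 recruits and the most abundant member by CPM, was at 158, 165 and 191 CPM at 3 months and 156, 136 and 146 CPM at 6 months, with a log2 fold change of -0.23 that lay between -0.29 and -0.14 when each mouse was left out.

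The inhibitors of the cell cycle, which mark senescent cells in many tissues, varied strongly between mice. The list of 11 genes also held *Trp53*, *Rb1*, *Mdm2* and *Ccng1*, which do not encode inhibitors of cyclin-dependent kinases. Their log2 fold changes were -0.05, -0.1, 0.07 and 0.0. The *Cdkn* members lay between -0.31 for *Cdkn1b* and 1.84 for *Cdkn2b*, with *Cdkn2c* at -0.28 and *Cdkn2d* at 0.06. Of all 11 genes, 7 were higher and 4 lower, with a median log2 fold change of 0.06 that does not stand for the *Cdkn* members alone. The median lay between 0.02 and 0.14 when each mouse was left out in turn. An unadjusted p under 0.05 was found for 3, *Cdkn1a*, *Cdkn1c* and *Cdkn2b*, all higher, beside 4.11% of all genes. None was higher without overlap, beside 6.69% of all genes, and 1, *Cdkn2c*, was lower without overlap, beside 7.95%. *Cdkn1a*, which encodes p21, was at 12.8, 53.5 and 14.5 CPM at 3 months and 32.3, 102 and 62.2 CPM at 6 months. *Cdkn2b*, which encodes p15, was at 7.42, 31.4 and 6.51 CPM at 3 months and 50.9, 85.5 and 25.8 CPM at 6 months. In both genes mouse 2 was the highest of its age. The log2 fold change of *Cdkn1a* was 1.28, or between 0.81 and 2.26 when each mouse was left out in turn. That of *Cdkn2b* was 1.84, or between 1.34 and 2.95. *Cdkn2a*, the gene of p16, which is often used as a marker of senescence, is given although it lies outside the naming rule, and was at 0.530, 2.30 and 0.513 CPM at 3 months and 2.58, 1.93 and 2.44 CPM at 6 months, with overlap and an adjusted p of 0.603.

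Genes of macrophages were higher at 6 months. Of 35 genes listed, 32 passed the filter on low counts, and 30 of these were higher, with a median log2 fold change of 0.39. The unadjusted p was under 0.05 for 17, all higher, where 4.11% of all genes were higher by that measure. No overlap was found for 15, all higher, beside 6.69% of all genes, and DESeq2 called 6 higher, beside 0.479%. The summed level of the list was 755, 891 and 905 CPM at 3 months and 1381, 1284 and 1425 CPM at 6 months. All 6-month-old mice lay above all 3-month-old mice. The median lay between 0.32 and 0.44 when each mouse was left out in turn.

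Promoters of 2 macrophage genes are shown because PU.1, the transcription factor that defines the myeloid lineage, binds GAGGAAG. The windows are as above, with CTTCCTC, the match on the other strand, in capitals.
Cd5l (chr3:87357631-87357880, plus strand): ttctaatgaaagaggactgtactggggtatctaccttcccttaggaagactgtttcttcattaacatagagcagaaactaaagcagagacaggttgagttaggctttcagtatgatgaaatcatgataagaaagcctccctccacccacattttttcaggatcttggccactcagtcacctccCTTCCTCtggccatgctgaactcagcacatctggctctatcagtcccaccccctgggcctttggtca
C1qc (chr4:136892915-136893164, minus strand): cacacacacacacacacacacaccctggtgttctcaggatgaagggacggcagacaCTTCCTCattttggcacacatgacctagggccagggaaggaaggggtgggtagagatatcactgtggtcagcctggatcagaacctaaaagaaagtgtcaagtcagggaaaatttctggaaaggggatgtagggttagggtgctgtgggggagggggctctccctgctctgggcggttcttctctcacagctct
The match lies at -67 in *Cd5l* and at -194 in *C1qc*. GAGGAAG in either orientation was found in 37.5% of 32 promoters of 27 macrophage genes and in 10.6% of all promoters.

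*Cd5l*, a secreted protein of tissue macrophages that limits their death, was at 1.205, 2.14 and 3.38 CPM at 3 months and 9.60, 7.38 and 13.1 CPM at 6 months. Every 6-month-old mouse had more than 2-fold the highest level at 3 months, and the log2 fold change was 2.16 ± 0.37. *Clec7a*, the receptor dectin-1 for fungal glucans, was at 11.3, 17.4 and 13.1 CPM at 3 months and 32.0, 29.9 and 45.0 CPM at 6 months. The annotation gives *Clec7a* as a polymorphic pseudogene, and its log2 fold change was 1.35 ± 0.21. *Slc11a1*, the metal transporter of the phagosome, was at 11.4, 13.4 and 11.4 CPM at 3 months and 21.2, 19.9 and 24.7 CPM at 6 months. *Lyz2*, lysozyme of myeloid cells and the most abundant gene of the list by CPM, was at 157, 160.1 and 251 CPM at 3 months and 365, 256 and 384 CPM at 6 months. None of these 4 genes overlapped between the ages.

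*Cd5l*, *Clec7a* and *Slc11a1* were named for their small p, so their differences do not stand for the whole list. Other markers of macrophages are given next, beside the list median of 0.39. *Csf1r*, the receptor on which macrophages depend for survival, was at 42.7, 48.2 and 53.6 CPM at 3 months and 72.2, 58.0 and 65.7 CPM at 6 months, with a log2 fold change of 0.44 ± 0.13. *C1qa*, a subunit of the first complement component, was at 59.9, 65.9 and 61.0 CPM at 3 months and 82.1, 68.6 and 84.2 CPM at 6 months. *C1qc*, another subunit, was at 49.4, 58.1 and 55.2 CPM at 3 months and 71.7, 61.1 and 81.2 CPM at 6 months. *Adgre1*, which encodes F4/80, overlapped between the ages and was at 20.6, 17.4 and 16.8 CPM at 3 months and 29.0, 20.5 and 16.5 CPM at 6 months. The ages also overlapped for *Cd68*, a membrane protein of late endosomes, which was at 17.3, 35.4 and 25.5 CPM at 3 months and 34.1, 39.1 and 46.8 CPM at 6 months.

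The lysosome list followed with a smaller difference, as 29 of 38 genes were higher with a median log2 fold change of 0.17. The unadjusted p was under 0.05 for 7, all higher, beside 4.11% of all genes, and 10 were higher without overlap, beside 6.69%. *Ctss*, cathepsin S, which cuts the invariant chain of MHC class II in antigen-presenting cells, was at 63.9, 71.5 and 58.2 CPM at 3 months and 107, 99.9 and 129 CPM at 6 months. *Lgmn*, the lysosomal protease legumain, was at 234, 340.4 and 295 CPM at 3 months and 473, 701 and 481 CPM at 6 months. *Atp6v0d2*, a subunit of the proton pump found in osteoclasts and macrophages, was at 6.89, 11.5 and 8.82 CPM at 3 months and 22.996, 17.5 and 23.5 CPM at 6 months. Each was higher without overlap, with log2 fold changes of 0.79 ± 0.13, 0.93 ± 0.19 and 1.24 ± 0.21. *Psap*, the precursor of the saposins and the most abundant member by CPM, was at 1330.5, 2176 and 2105 CPM at 3 months and 2044, 2660.3 and 2583 CPM at 6 months with overlap. The median of this list went down to 0.09 without 3-month mouse 1.

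**Figure D2:**
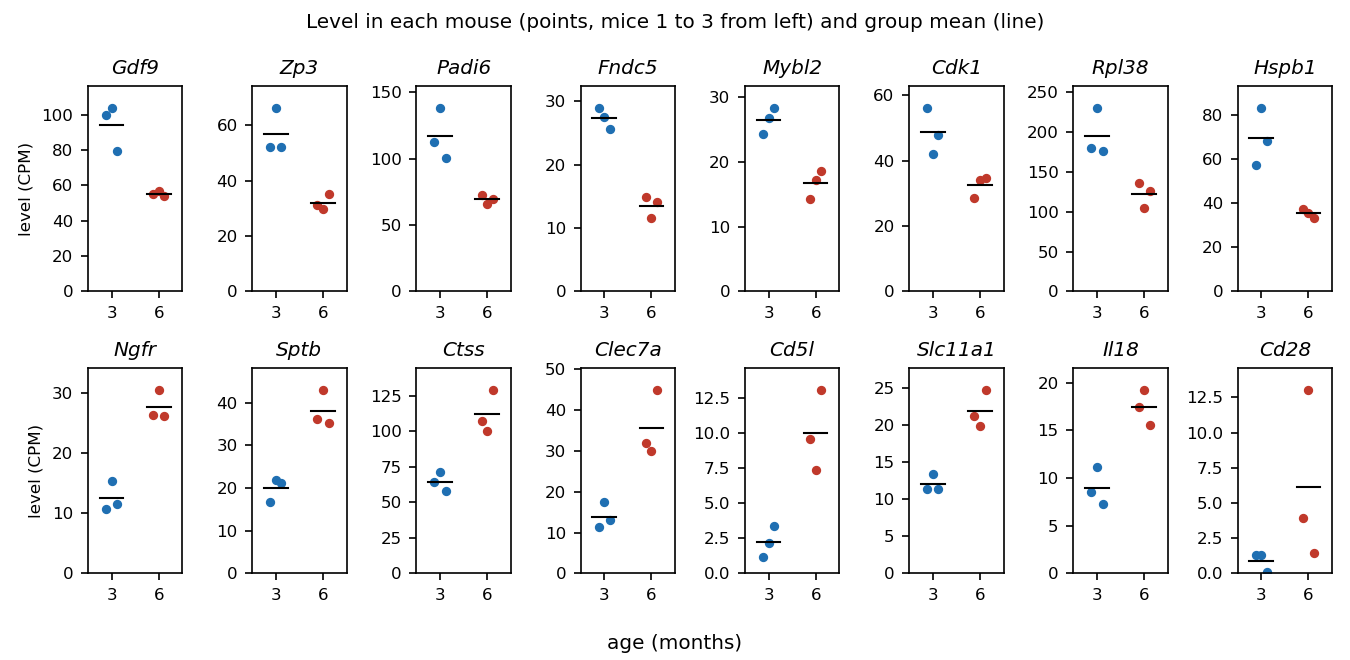
Level in CPM, on axes that start at 0, of 16 genes in each of the 3 mice at 3 months (blue) and at 6 months (red), with the mean of each age as a black line. The 16 genes were picked from those named for a small p in these same mice. In all 16 the ages do not overlap, beside 14.6% of all genes without overlap in either direction. The spread within an age is wide for its level in the lymphocyte gene Cd28. There 1 mouse at 6 months reached 13.03 CPM and another had 1.48 CPM.

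Of the 12 genes chosen in the same way among those higher at 6 months, *Ctss*, *Cd5l*, *Slc11a1* and *Atp6v0d2* are given above, and the other 8 have varied roles. *Ngfr*, the low-affinity receptor of neurotrophins (chr11:95568818-95587735), was at 10.7, 15.3 and 11.6 CPM at 3 months and 26.4, 30.5 and 26.1 CPM at 6 months, with a log2 fold change of 1.14 ± 0.17. *Angptl7*, a secreted angiopoietin-like protein, was at 2.41, 2.46 and 1.38 CPM at 3 months and 7.16, 6.09 and 9.93 CPM at 6 months. *Sptb*, the beta spectrin of the red cell membrane skeleton, was at 16.7, 21.8 and 21.3 CPM at 3 months and 36.2, 43.0 and 35.1 CPM at 6 months. *Fam129a*, a stress-responsive protein also named Niban, was at 115, 122 and 129 CPM at 3 months and 189.7, 243 and 196 CPM at 6 months, and *Ildr2*, a membrane protein of the immunoglobulin family, at 34.0, 37.6 and 32.9 CPM at 3 months and 57.6, 59.5 and 51.0 CPM at 6 months. The gene of a glutamate receptor subunit, *Grin2b*, was at 2.60, 4.39 and 3.33 CPM at 3 months and 15.01, 8.57 and 9.22 CPM at 6 months. *Phf24* was at 4.24, 5.24 and 5.64 CPM at 3 months and 12.6, 15.2 and 9.32 CPM at 6 months. *Cd163l1*, a scavenger receptor gene related to Cd163, was at 0.819, 0.589 and 0.666 CPM at 3 months and 1.95, 4.21 and 3.21 CPM at 6 months, with the largest log2 fold change of these 8 genes, 2.16 ± 0.38. The DESeq2 adjusted p was under 0.05 for all 12, and also for the 12 chosen in this way among those lower at 6 months. DESeq2 called 0.479% of all genes higher and 0.326% lower. The genes were chosen for a small p on the same counts, so these calls are not independent evidence.

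Lymphocyte genes were at low levels in both ages. Of 30 genes of T and NK cells, 20 passed the filter, 17 of them were higher, and the median log2 fold change was 0.43, with an unadjusted p under 0.05 for 5 (4.11% of all genes were higher by that measure) and no overlap for 5 (6.69% of all genes), all higher. The median went down to 0.27 without 6-month mouse 2. The list summed to 31.2, 27.4 and 24.1 CPM at 3 months and 37.8, 57.4 and 36.5 CPM at 6 months. *Cd3e*, a chain of the T cell receptor complex, was at 1.16, 0.589 and 0.769 CPM at 3 months and 1.95, 2.53 and 1.68 CPM at 6 months. *Zap70*, the kinase of that receptor, was at 1.88, 1.77 and 1.44 CPM at 3 months and 3.26, 7.13 and 3.004 CPM at 6 months. *Cd28*, the costimulatory receptor, was at 1.30, 1.34 and 0.103 CPM at 3 months and 3.95, 13.03 and 1.48 CPM at 6 months. In all 3 genes 6-month mouse 2 was the highest, and the log2 fold change of *Cd28* lay between 1.55 and 3.20 when each mouse was left out in turn. *Lck*, the most abundant member by CPM, overlapped and was at 4.63, 2.73 and 5.84 CPM at 3 months and 5.70, 5.004 and 4.12 CPM at 6 months.

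Genes of B and plasma cells depended on 1 mouse. Of 19 genes, 13 passed the filter and 10 of these were higher with a median log2 fold change of 0.45, which went down to 0.12 without 6-month mouse 2. The 13 constant-region genes of immunoglobulins had 1377, 321 and 462 counts in all at 3 months and 561, 7431 and 1615 counts at 6 months. *Igkc*, the kappa constant region, was at 20.7, 3.21 and 4.87 CPM at 3 months and 4.53, 117 and 26.2 CPM at 6 months, and *Jchain*, which joins secreted IgA and IgM, was at 5.69, 1.23 and 2.61 CPM at 3 months and 2.19, 49.6 and 4.18 CPM at 6 months. The smallest p of the list was that of *Derl3*, which went the other way, lower without overlap, with a log2 fold change of -0.68 and the only DESeq2 call of the list. *Cd22*, a receptor of B cells, was higher without overlap and was at 2.89, 3.37 and 4.31 CPM at 3 months and 5.70, 4.46 and 6.16 CPM at 6 months. *Ighg3*, the constant region of IgG3, was chosen after its values were seen. It had 9, 5 and 2 counts at 3 months and 87, 112 and 565 counts at 6 months, so that no value overlapped.

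Other immune lists showed smaller or mixed differences. Antigen presentation by MHC class II had 11 of 13 genes higher with a median log2 fold change of 0.18, or 0.06 without 3-month mouse 3, and *Cd74*, its most abundant gene by CPM, overlapped at 271, 312 and 226 CPM at 3 months and 274, 301 and 331 CPM at 6 months. The dendritic cell list had 6 of 11 higher with a median of 0.24, or 0.03 without 3-month mouse 1, and its member *Itgax*, the integrin CD11c, was at 3.52, 9.63 and 6.92 CPM at 3 months and 11.4, 13.5 and 12.8 CPM at 6 months. Complement had 12 of 17 higher with a median of 0.12, or 0.03 without 3-month mouse 3, and MHC class I with interferon response had 23 of 40 higher with a median of 0.05, or -0.04 without 3-month mouse 3. Of 20 genes of neutrophils and mast cells 9 passed the filter, with *Elane* at 0 in all libraries and *Ly6g*, the defining marker of neutrophils, at 1 count in 1 library and 0 in the rest. Cytokines and chemokines had 14 of 29 higher and 15 lower, with a median of -0.04, or 0.30 without 3-month mouse 2, and *Ccl19* and *Ccl21a* at 0. Among them *Il18*, a cytokine of macrophages, was higher without overlap at 8.53, 11.1 and 7.23 CPM at 3 months and 17.5, 19.2 and 15.5 CPM at 6 months, and *Ccl17*, a chemokine for T cells, was lower at 0.723, 1.18 and 1.64 CPM at 3 months and 0.487, 0.248 and 0.356 CPM at 6 months.

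The secreted factors that the study named for senescence were examined as a list of 21 genes, of which 19 passed the filter. Of these 15 were higher and 4 lower, with a median log2 fold change of 0.32. The median lay between 0.21 and 0.47 when each mouse was left out in turn. The unadjusted p was under 0.05 for 5, all higher, beside 4.11% of all genes, and 4 were higher without overlap, beside 6.69%. The study named these genes with these same samples in view, so the direction of the list is not independent evidence. *Pdgfa*, platelet-derived growth factor A, was at 19.997, 28.0 and 20.5 CPM at 3 months and 33.1, 32.7 and 45.8 CPM at 6 months, with a log2 fold change of 0.70 ± 0.18. *Fgf2*, a growth factor for many cell types, was at 19.4, 22.5 and 18.4 CPM at 3 months and 28.7, 27.4 and 25.2 CPM at 6 months. *Axl*, a receptor for the uptake of dead cells, was at 262, 365 and 341 CPM at 3 months and 429.9, 372 and 463 CPM at 6 months, and *Cxcl10*, a chemokine induced by interferon, was at 2.31, 2.46 and 2.87 CPM at 3 months and 3.36, 3.86 and 3.62 CPM at 6 months. These 4 were the members without overlap. *Timp1*, an inhibitor of matrix proteases, was at 33.7, 133 and 49.9 CPM at 3 months and 94.1, 368 and 144 CPM at 6 months, with overlap. It had the largest log2 fold change of the list, 1.48 ± 0.58, which was 0.72 without 6-month mouse 2 and 2.27 without 3-month mouse 2. Its adjusted p by edgeR was 0.496, or 0.0198 with the replicate number as a block. The numbers were not taken to pair the mice. *Timp2* was at 257, 368 and 285 CPM at 3 months and 367, 432 and 383 CPM at 6 months. *Kitl*, the ligand of KIT that granulosa cells make, was at 95.9, 78.5 and 66.9 CPM at 3 months and 117, 105 and 86.3 CPM at 6 months. Of the members that were lower, *Ccl2*, a chemokine for monocytes, was at 1.16, 14.6 and 1.74 CPM at 3 months and 2.48, 1.98 and 1.94 CPM at 6 months, so 3-month mouse 2 alone set its direction. *Il1b* was at 0.241, 0.803 and 0.154 CPM at 3 months and 0.731, 1.88 and 0.356 CPM at 6 months, and *Il6* had 0, 2 and 3 counts at 3 months and 6, 0 and 13 counts at 6 months.

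**Figure D3:**
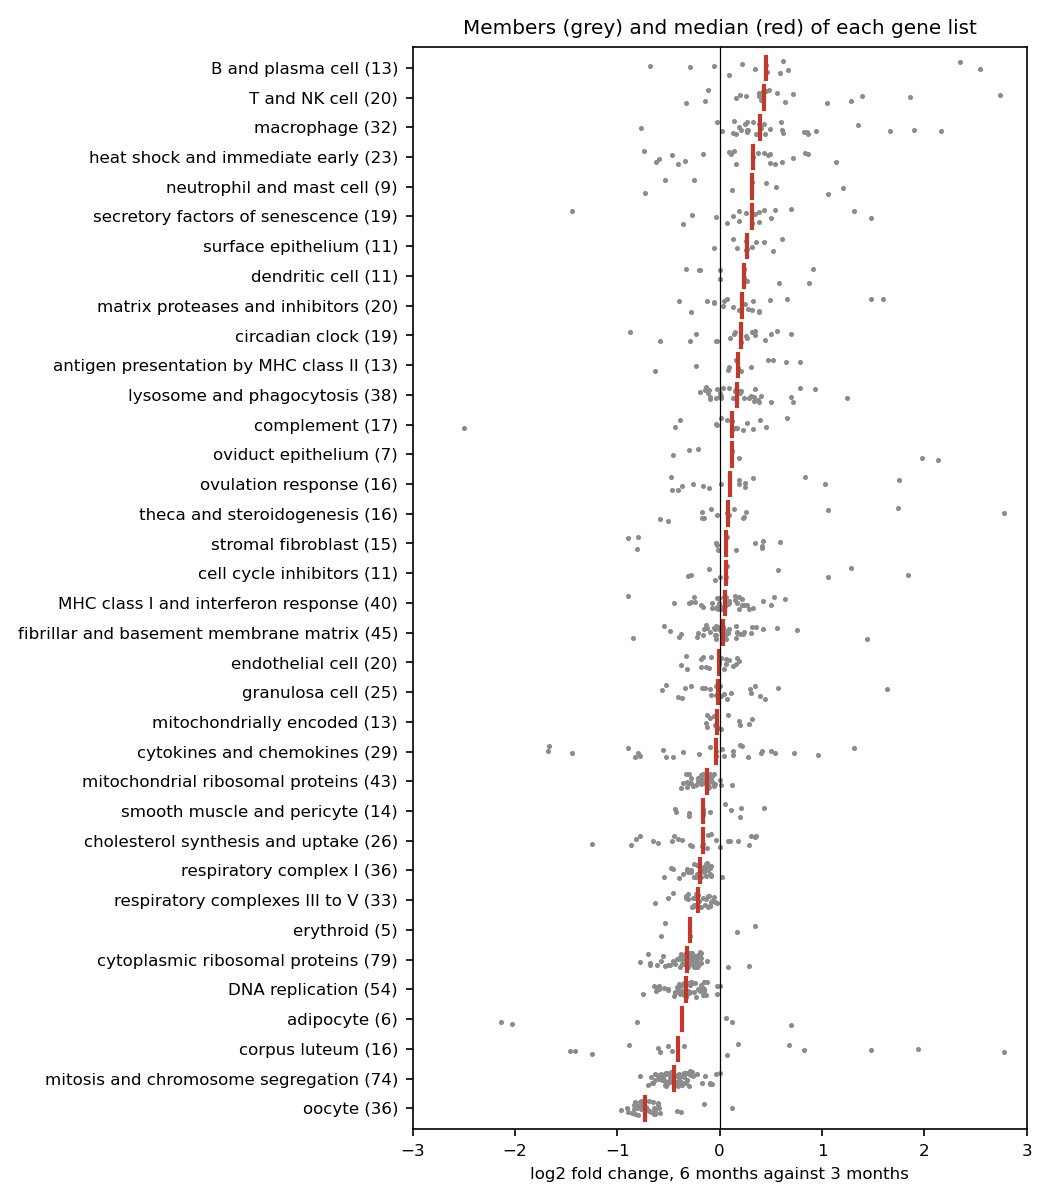
Each grey point is the log2 fold change of 1 gene at 6 months against 3 months, each row is 1 of the 36 lists with the number of genes tested, and the red bar is the median of the list. The oocyte, mitosis, DNA replication and ribosomal lists form narrow bands below 0 (medians of -0.73, -0.45, -0.33 and -0.32), while lists such as corpus luteum spread from -1.46 to 2.78.

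Steroid-making and granulosa cell genes showed no common direction. Of 25 granulosa cell genes 11 were higher and 14 lower, with a median log2 fold change of -0.02. *Nr5a1*, the transcription factor SF-1, was higher without overlap at 347, 350.0 and 293 CPM at 3 months and 440.3, 477 and 433 CPM at 6 months. *Amh* overlapped, with a log2 fold change of -0.52 ± 0.20, or -0.30 without 3-month mouse 1. *Cyp19a1*, the aromatase that makes estradiol, was at 16.5, 47.8 and 6.71 CPM at 3 months and 50.9, 89.1 and 80.5 CPM at 6 months, higher without overlap but widely spread at 3 months. *Cyp17a1* was also higher without overlap, with a log2 fold change of 1.74 ± 0.62 that was 2.82 without 3-month mouse 1 and 1.29 without 3-month mouse 3. The theca and steroidogenesis list had 9 of 16 higher with a median of 0.08, or -0.02 without 3-month mouse 2.

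The corpus luteum list had 7 of 16 higher and a median of -0.41, which lay at -0.07 without 3-month mouse 1 and at -0.03 without 3-month mouse 3. *Akr1c18*, which inactivates progesterone, was at 117, 166 and 8.10 CPM at 3 months and 599, 1283 and 116 CPM at 6 months. *Gulo*, the last enzyme of vitamin C synthesis, was lower without overlap at 16.9, 8.24 and 11.3 CPM at 3 months and 7.16, 6.14 and 6.47 CPM at 6 months. The stage of the estrous cycle is not given in the labels, and its part in the spread of these genes was not tested. Of 26 genes of cholesterol synthesis and uptake 18 were lower with a median of -0.16, which was -0.45 without 3-month mouse 2 and 0.08 without 3-month mouse 1, and 3-month mouse 2 stood apart, with a summed level of 2440 CPM against 6550 and 5383 CPM in the other mice of its age and between 3673 and 3914 CPM at 6 months. The ovulation response list had 9 of 16 higher with a median of 0.10, or -0.22 without 6-month mouse 2.

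Stroma and vessels differed little as groups. Matrix genes had 25 of 45 higher with a median of 0.03, endothelial genes 9 of 20 with -0.01, stromal fibroblast genes 8 of 15 with 0.06, and genes of smooth muscle and pericytes 5 of 14 with -0.16. When each mouse was left out in turn, the medians lay between -0.12 and 0.11 for matrix and between -0.08 and 0.09 for endothelium. They lay between 0.03 and 0.18 for stromal fibroblasts and between -0.21 and 0.03 for smooth muscle and pericytes. Some members did not overlap. *Tnc*, the matrix protein tenascin C, was at 161, 467 and 162 CPM at 3 months and 836, 812 and 492 CPM at 6 months. *Lum*, a proteoglycan that organizes collagen, was at 112, 122 and 107 CPM at 3 months and 175, 149 and 132 CPM at 6 months. *Pdgfrb*, a receptor of pericytes and fibroblasts, was at 113, 150.2 and 130.4 CPM at 3 months and 162, 181 and 182 CPM at 6 months. *Eln*, elastin, was lower at 51.5, 52.3 and 63.8 CPM at 3 months and 35.4, 40.5 and 43.8 CPM at 6 months, as was *Mfap5*, a protein of elastic microfibrils, at 28.8, 32.8 and 21.8 CPM at 3 months and 15.9, 13.8 and 17.8 CPM at 6 months. Their log2 fold changes were 1.44 ± 0.41, 0.42 ± 0.13, 0.41 ± 0.12, -0.49 ± 0.13 and -0.81 ± 0.18 in this order. Matrix proteases and inhibitors had 15 of 20 higher with a median of 0.22, or 0.08 without 3-month mouse 1, and *Mmp12*, the elastase of macrophages, was at 5.20, 19.6 and 3.33 CPM at 3 months and 22.7, 39.0 and 23.5 CPM at 6 months. The surface epithelium list had 10 of 11 higher with a median of 0.27, and its member *Upk1b*, a uroplakin, was at 26.6, 26.2 and 25.2 CPM at 3 months and 30.2, 45.8 and 36.1 CPM at 6 months.

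Genes of the cytoplasmic ribosome differed by small and even amounts. Of 79 genes 77 were lower with a median log2 fold change of -0.32, an unadjusted p under 0.05 for 61, no overlap for 74 and a DESeq2 call for 10. Over all genes, 5.0%, 7.95% and 0.326% were lower by these measures. The list summed to 52325, 49838 and 52768 CPM at 3 months and 41304, 40118 and 44221 CPM at 6 months. *Rpl38*, a small protein of the large subunit, was at 179.6, 230.0 and 176 CPM at 3 months and 136, 105 and 126 CPM at 6 months, and *Rpl39*, another, at 205, 209 and 199 CPM at 3 months and 140.0, 112 and 151 CPM at 6 months. These genes have many processed copies in the genome. Reads shared with those copies were not measured, so single values are uncertain.

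Nuclear genes of mitochondria were lower by less. Of 36 genes of respiratory complex I 35 were lower with a median of -0.19 and no overlap for 19. All 33 genes of complexes III to V were lower with a median of -0.21 and no overlap for 13. That median lay between -0.24 and -0.12 when each mouse was left out in turn. For the mitochondrial ribosome 41 of 43 genes were lower with a median of -0.12 and no overlap for 10. Over all genes, 7.95% were lower without overlap. *Ndufc1* of complex I was at 48.4, 41.8 and 50.1 CPM at 3 months and 33.5, 32.2 and 35.2 CPM at 6 months, *Uqcr11* of complex III at 65.8, 63.4 and 76.7 CPM at 3 months and 45.7, 49.2 and 50.7 CPM at 6 months and *Atp5e* of the ATP synthase at 126, 109.8 and 118 CPM at 3 months and 85.1, 87.6 and 85.4 CPM at 6 months. The 13 genes encoded in mitochondrial DNA were not lower as a group, with 6 higher, 7 lower and a median of -0.03, which lay between -0.10 and 0.08 when each mouse was left out in turn.

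Gene length moved with these lists. Genes were split by summed exon length into 5 groups of 3461. In the shortest group, up to 2001 bases, the median log2 fold change was -0.11 with 36.7% higher, and in the longest group, from 7052 bases on, it was 0.08 with 68.2% higher. The shortest group held 44 of 79 ribosomal genes, 22 of 36 of complex I and 21 of 33 of complexes III to V. It also held 18 of 43 genes of the mitochondrial ribosome, 13 of 32 macrophage genes and 15 of 36 oocyte genes. All 13 genes encoded in mitochondrial DNA, which were not lower as a group, were in it too. The trend was strongest in 6-month mouse 1, whose median deviations in these 2 groups were -0.10 and 0.13. The part of gene length or RNA quality in these lists was not tested.

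The natural aging series went on to 25 months, and the same lists are shown there as a description, relative to the same 3-month-old mice. The mean log2 level of the 36 oocyte genes relative to 3 months was -0.59, -0.71 and -0.67 in the 6-month-old mice, between -2.04 and -0.85 at 9 months, between -3.23 and -1.35 at 12 months, between -3.05 and -2.69 at 18 months and between -5.19 and -3.44 at 25 months. The 6-month-old mice thus lay between the mice of 3 and of 9 months without overlap with either. *Gdf9* had a mean of 94.4 ± 13.2 CPM (SD, n = 3) at 3 months, 55.2 ± 1.57 at 6 months, 34.1 ± 13.6 at 9 months and 4.55 ± 3.72 at 25 months.

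The macrophage list did not go on at 9 months. Its mean log2 level relative to 3 months was 0.52, 0.41 and 0.43 at 6 months and between 0.22 and 0.30 at 9 months, and lay between 0.38 and 1.40 at 12 months and between 1.36 and 2.70 at 25 months. *Ctss* had a mean of 112 ± 15.1 CPM (SD, n = 3) at 6 months, 106 ± 8.55 at 9 months and 1249 ± 994 at 25 months. The genes of mitosis lay between -0.61 and -0.19 at 6 months, between -0.97 and -0.33 at 9 months and between -2.28 and -2.14 at 25 months. The ribosomal genes lay between -0.40 and -0.24 at 6 months and between -0.60 and -0.32 at 9 months, and at 25 months they were at -0.49 to -0.17, within the range of the middle ages. The T and NK cell list lay between 0.32 and 0.59 at 6 months and reached 4.37 at 25 months, and the B and plasma cell list lay between 0.03 and 0.77 at 6 months and reached 4.70 at 25 months. *Fndc5* and *Hspb1* were the 2 genes with the smallest p among those lower at 6 months. Their means were 13.5 ± 1.76 CPM and 35.3 ± 1.87 CPM (SD, n = 3) at 6 months. At 25 months the means were not lower, at 17.9 ± 7.36 CPM and 59.4 ± 14.8 CPM. Both were chosen by their values at 6 months, and the part of this choice in the comparison with 25 months was not tested.

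**Figure D4:**
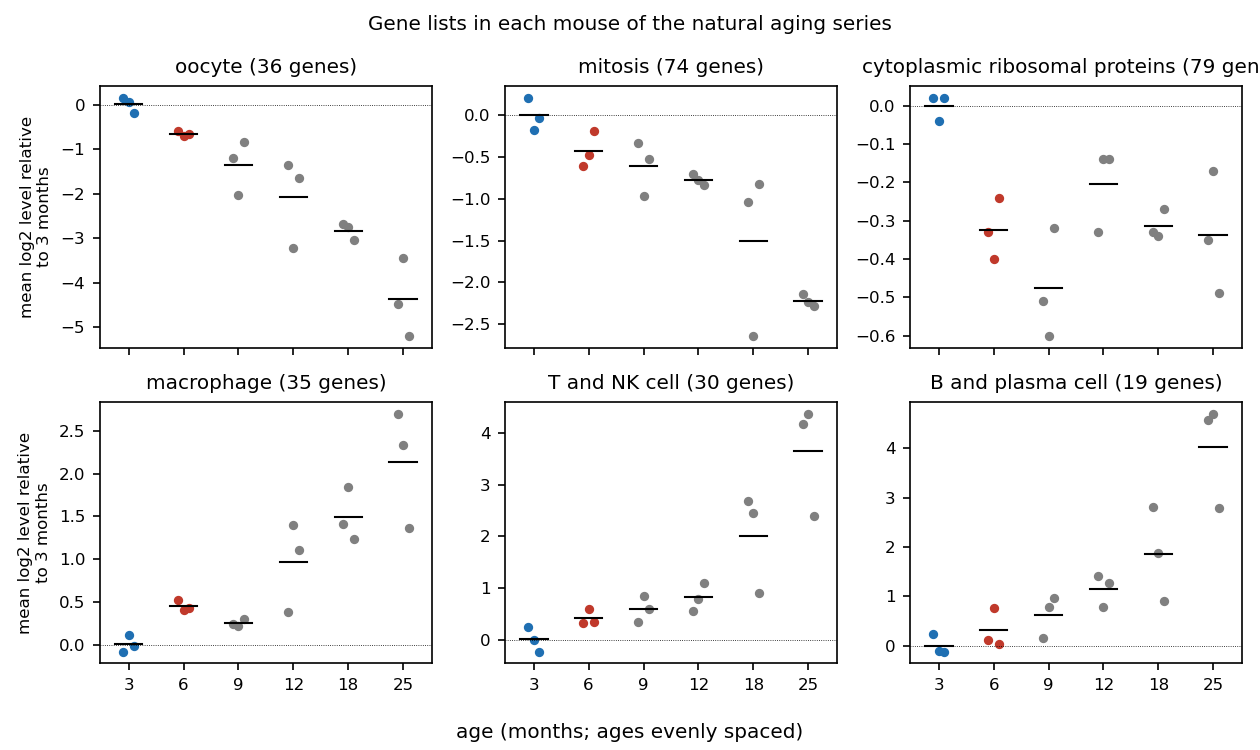
Mean log2 level of 6 gene lists in each of the 18 mice of the natural aging series, relative to the mean at 3 months, against age in months on an evenly spaced axis; blue points are 3 months, red points 6 months, grey points later ages, and black lines are means. The mean of the oocyte list is lower at each later age and the list ends between -5.19 and -3.44, the macrophage list is higher at 6 than at 9 months before it reaches up to 2.70, and the ribosomal list stays between -0.60 and -0.14 after 3 months.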

How the data were processed

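Female C57BL/6J ovaries of the natural aging series were compared at 3 and 6 months (3 mice each), with groups taken from the sample labels. RNA was extracted with a TRIzol Plus kit, libraries were made with the NEBNext Ultra RNA kit, and sequencing was done by Novogene. The table the authors deposited holds whole-number counts of reads per gene and library that had not been normalized. The submitters' processing notes name STAR, with no version, and the build mm10; the counting program, its strand setting and its annotation are not given in the sources used here, so antisense and overlapping genes cannot be told apart. Of 54532 gene identifiers, 54495 are in GENCODE M21 on GRCm38, which gave symbols, positions and lengths.

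Low genes were removed by filterByExpr at its defaults. The 17313 genes left were scaled by TMM and tested over the 6 libraries with the quasi-likelihood test of edgeR 4.0.16 (R 4.3.3), with p-values adjusted by Benjamini-Hochberg and a threshold of 0.05. The standard error is the size of the log2 fold change divided by the square root of F. CPM values were normalized by TMM over the 18 natural aging libraries, and the mean log2 level of a list used a prior count of 2. The script was tested on simulated data. The labels do not say whether mice came from separate litters, so p-values measure the spread between these mice, and an exact permutation test of 3 against 3 cannot go below 0.1.

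Named genes were those with an adjusted p under 0.05, the 12 with the smallest p in each direction among protein-coding genes without overlap and with at least 2 CPM at the higher age, the 3 members with the smallest p and the most abundant member of each of 36 lists, the senescence factors, the cell type markers, and Nnt and Gbp2b. The members, lists and motifs were chosen with earlier results of these data known, and the E-box motif was added after the other motifs had been counted. Promoters are from RefSeq on GRCm38.p6 (250 bases before each start). Alternatives were DESeq2 1.42.0, RLE or total-count scaling, no filter, at least 10 counts in each library, a replicate block, all 18 libraries in 1 fit, and each mouse left out. Columns of the authors' own comparisons were not used. Plots were made with matplotlib 3.10.9.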

Additional observations from a re-analysis of the deposited data

How the results depend on the processing

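With 3 mice at each age, the count of genes past an adjusted p of 0.05 depended on the method. The main edgeR test called 0 genes in either direction. DESeq2 called 75 higher and 51 lower, and edgeR without a low-count filter called 248 higher and 208 lower, of which 425 of 456 were among the genes of the main test and 124 were among the 126 of DESeq2; without adjustment that fit gave 1335 higher and 1305 lower. The cause was not tested. With all 18 natural aging libraries in 1 fit no gene passed the adjusted threshold, and 383 higher and 432 lower passed without adjustment. Leaving out each mouse gave between 0 and 33 higher and between 0 and 43 lower with adjustment, all of them without 3-month mouse 2. Without adjustment it gave between 520 and 937 higher and between 570 and 1093 lower. The 76 genes called without 3-month mouse 2 held 14 of the 126 of DESeq2 and 72 of the 456 of the fit without a filter. They held 1 macrophage gene and 0 genes of the oocyte and ribosomal lists. The alternatives were followed for 107 genes, many of them named for a small p or for values without overlap in these same mice. Such a choice favors a kept direction, so the count is not independent evidence. Of the 107, 103 kept the direction of their log2 fold change under all alternatives that tested them. The other 4 changed direction when 1 mouse was left out, with ranges of -0.10 to 0.60 for *Kit*, -0.09 to 0.43 for *Lck*, -0.01 to 3.26 for *Jchain* and -1.92 to 0.55 for *Ccl2*. The counts of members higher or lower of the oocyte, mitosis, DNA replication, macrophage, lysosome and ribosomal lists stayed within 1.5 times the main count. This range is wide for lists with nearly all members on one side. The lysosome count, 29 in the main test, lay between 22 and 32 when each mouse was left out in turn.

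Mice of the 2 ages carry the same replicate numbers in the labels. The deviations of same-numbered mice from their group means correlated with r of 0.07, -0.03 and 0.21 across genes. Differently numbered mice gave r between -0.17 and 0.1, so the value of 0.21 for the mice numbered 3 was the highest. The labels do not state a pairing, and the numbers were not taken to pair the mice. With the replicate number as a block, 1 gene was higher, *Timp1* with an adjusted p of 0.0198 by edgeR, and 0 were lower.

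Leaving out each mouse moved some list medians by more than the spread between mice. Their medians lay between -0.46 and -0.03 for corpus luteum, -0.22 and 0.14 for ovulation response, 0.09 and 0.24 for lysosome and phagocytosis, 0.12 and 0.57 for B and plasma cells, 0.21 and 0.71 for neutrophils and mast cells, -0.13 and 0.30 for cytokines and chemokines, 0.03 and 0.18 for stromal fibroblasts, -0.21 and 0.03 for smooth muscle and pericytes, -0.71 and 0.61 for erythroid genes, -0.24 and -0.12 for respiratory complexes III to V, 0.16 and 0.64 for heat shock and immediate early genes and 0.16 and 0.32 for the circadian clock. Others, which moved by less than that spread, included ranges of -0.45 to 0.08 for cholesterol synthesis, -1.27 to 0.55 for adipocytes, -0.66 to 0.27 for the oviduct, 0.06 to 0.27 for MHC class II, 0.03 to 0.34 for dendritic cells, 0.03 to 0.20 for complement, 0.27 to 0.60 for T and NK cells, 0.21 to 0.47 for the senescence factors, 0.08 to 0.37 for matrix proteases, 0.19 to 0.43 for the surface epithelium, -0.12 to 0.11 for matrix, -0.10 to 0.04 for granulosa cells and -0.08 to 0.09 for endothelium.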

Other observations

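No member of the list of circadian clock genes, or of the list of heat shock and immediate early genes, which does not hold *Hspb1*, had an adjusted p under 0.05 by edgeR or DESeq2. Of 19 clock genes 13 had a higher fitted level at 6 months, with a median log2 fold change of 0.21. Without adjustment, 5 were higher and 2 lower with a p under 0.05, and 4 were higher and 1 lower without overlap, where 4.11% and 5.0% of all genes were higher and lower by p and 6.69% and 7.95% without overlap. *Hlf* and *Tef*, transcription factors that the clock drives, were higher without overlap, with *Hlf* at 17.2, 18.4 and 16.8 CPM at 3 months and 22.2, 26.8 and 25.2 CPM at 6 months and *Tef* at 169.9, 144 and 175 CPM at 3 months and 214, 211 and 200.02 CPM at 6 months. *Npas2*, an activator of the clock, was lower without overlap at 6.94, 4.92 and 7.89 CPM at 3 months and 2.29, 4.91 and 3.56 CPM at 6 months. The hour of collection is not given in the labels, and its part in these values was not tested.

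Of 23 heat shock and immediate early genes 16 were higher with a median of 0.33. This median lay between 0.16 and 0.64 when each mouse was left out in turn. Without adjustment, p was under 0.05 for 3 higher and 4 lower, beside 4.11% and 5.0% of all genes, and 1 was higher and 3 were lower without overlap, beside 6.69% and 7.95%. The chaperones among those with a p under 0.05 were lower. *Hsp90aa1*, the inducible cytosolic chaperone, was at 735, 652 and 583 CPM at 3 months and 532, 355 and 426 CPM at 6 months, and *Hspe1*, the mitochondrial chaperonin partner, was at 231, 279.5 and 290.5 CPM at 3 months and 219, 169 and 191 CPM at 6 months. *Klf4*, an early response transcription factor, was higher without overlap at 10.6, 12.1 and 11.3 CPM at 3 months and 13.5, 20.02 and 18.4 CPM at 6 months. Of 7 erythroid genes 5 passed the filter, 2 higher and 3 lower, with a median of -0.29, or 0.61 without 3-month mouse 1. In fat cell markers, *Plin1*, the coat protein of lipid droplets, was higher without overlap at 31.8, 24.3 and 17.3 CPM at 3 months and 40.6, 46.6 and 32.1 CPM at 6 months, and it did not follow *Adipoq*; the list had 3 of 6 higher and a median of -0.37, which lay between -1.27 and 0.55 when each mouse was left out, 0.55 being without 3-month mouse 1. The oviduct list had 4 of 7 higher and a median of 0.12, which was -0.66 without 6-month mouse 3. The list of neutrophils and mast cells had 6 of 9 higher and a median of 0.32.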
